A study of Mus musculus with 4 samples.

Results

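The 46 genes described here encode the machinery that mends DNA double-strand breaks, unhooks crosslinks between DNA strands and excises damaged bases. They were chosen by name, as a list of repair genes, with earlier results of these data known. All 46 were found in the deposited table of 41457 genes. Poly(A) RNA was counted in 4 libraries of mouse colon tumour cells cultured in RPMI medium: the ENU mutants M8, M32 and M83, and the control cells. ENU (N-ethyl-N-nitrosourea) is an alkylating mutagen, and each mutant is a line of its own. The labels name neither the parent cell line nor the mutated genes, and do not say whether a line is 1 clone or grew in parallel with the control. The series text mentions triplicates, but each line and the control have 1 column of counts, so a column may or may not be a sum.

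The libraries held 28879954 counts in M8, 27312207 in M32 and 28011773 in M83, against 25818148 in control. Counts printed for single genes are not scaled to these totals, of which that of control was the smallest. A gene can thus have more counts in a line than in control and still lie below control after scaling. All 46 repair genes passed the filter on low counts, which kept 13576 genes, and their counts ran from 60 to 8747 per library. The labelled colon origin was matched by only a part of the epithelial markers looked up. Of 12 such markers only Krt8, Krt18, Krt19 and Krt20 passed the filter, with most counts on Krt18 and Krt20. Krt20 had 3306, 1008 and 3667 counts in M8, M32 and M83, against 1914 in control. Of the same 12, Epcam, Cdx2, Muc2 and Car1 had 0 counts in every library. The summed level of that list was 178, 73.3 and 165 CPM (counts scaled to the library total) in M8, M32 and M83, against 102 CPM in control. Of 6 fibroblast and mesenchymal markers 5 were tested, with a summed 7304, 8432 and 8060 CPM in the lines, against 6665 CPM in control, and Thy1 was at 0. Vim alone had at least 115473 counts per library. Leukocyte markers, of which Cd3e and Adgre1 were at 0, summed to at most 1.90 CPM and endothelial markers to at most 0.762 CPM in any library.

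Double-strand breaks are mended along alternative routes. Non-homologous end joining rejoins the ends directly, while homologous recombination copies the sister chromatid and is therefore tied to DNA replication and the S and G2 phases. The Fanconi anaemia proteins act at replication forks stalled by a crosslink, where the lesion is unhooked and the resulting break is passed to recombination. Base excision repair removes small lesions, among them bases alkylated on ring nitrogens, and nucleotide excision repair removes bulky ones. Several recombination and Fanconi genes are known targets of E2F factors, so their transcripts usually follow the share of dividing cells.

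Most of the 46 transcripts lay somewhat below control in the mutant lines, by small amounts. By direction alone, 29 of the 46 genes lay below control in all 3 lines, 63.0% of the list against 21.3% of all tested genes. Only Atr lay above control in every line, which is 2.17% of the list, against 23.3% of all tested genes. The remaining 16 genes differed in direction between lines. Here and below, counts of genes below or above control in every line take no account of counting error. Some of the 29 did not differ from control beyond that error in every line. Rad51b did so in none of the 3 lines, Xrcc4 not in M8 or M32, and Fancb not in M8 or M83. The 3 lines share the single control library, so a high value there places a gene below control in each line at once. Control was the highest library for 29 of the genes and the lowest for 1. M8 was the lowest for 18, M32 for 12 and M83 for 15.

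No repair gene passed the test across the lines. With the 3 lines set against control in edgeR's quasi-likelihood test, 0 of the 46 had an adjusted p under 0.05, and 0 had an unadjusted p under 0.05. The smallest unadjusted p among them was 0.0819, for Rad54l, in that edgeR fit. Over all genes tested 1 passed, which is 0.00737%, and 3.30% had an unadjusted p under 0.05. DESeq2 called 0 of the 46 as well, against 0.189% of all genes it tested. The median fitted log2 difference of the list was -0.27, against 0.02 for all tested genes. Of the 46 values 39 were negative, against 6334 of the 13576 over all tested genes. The standard errors ran from 0.218 to 0.549, and 27 of the 46 differences were smaller than their own standard error. That last count was not made over all tested genes. These p-values rest on 3 different mutants and a lone control, which is assumed to vary as the lines do.

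**Figure D1:**
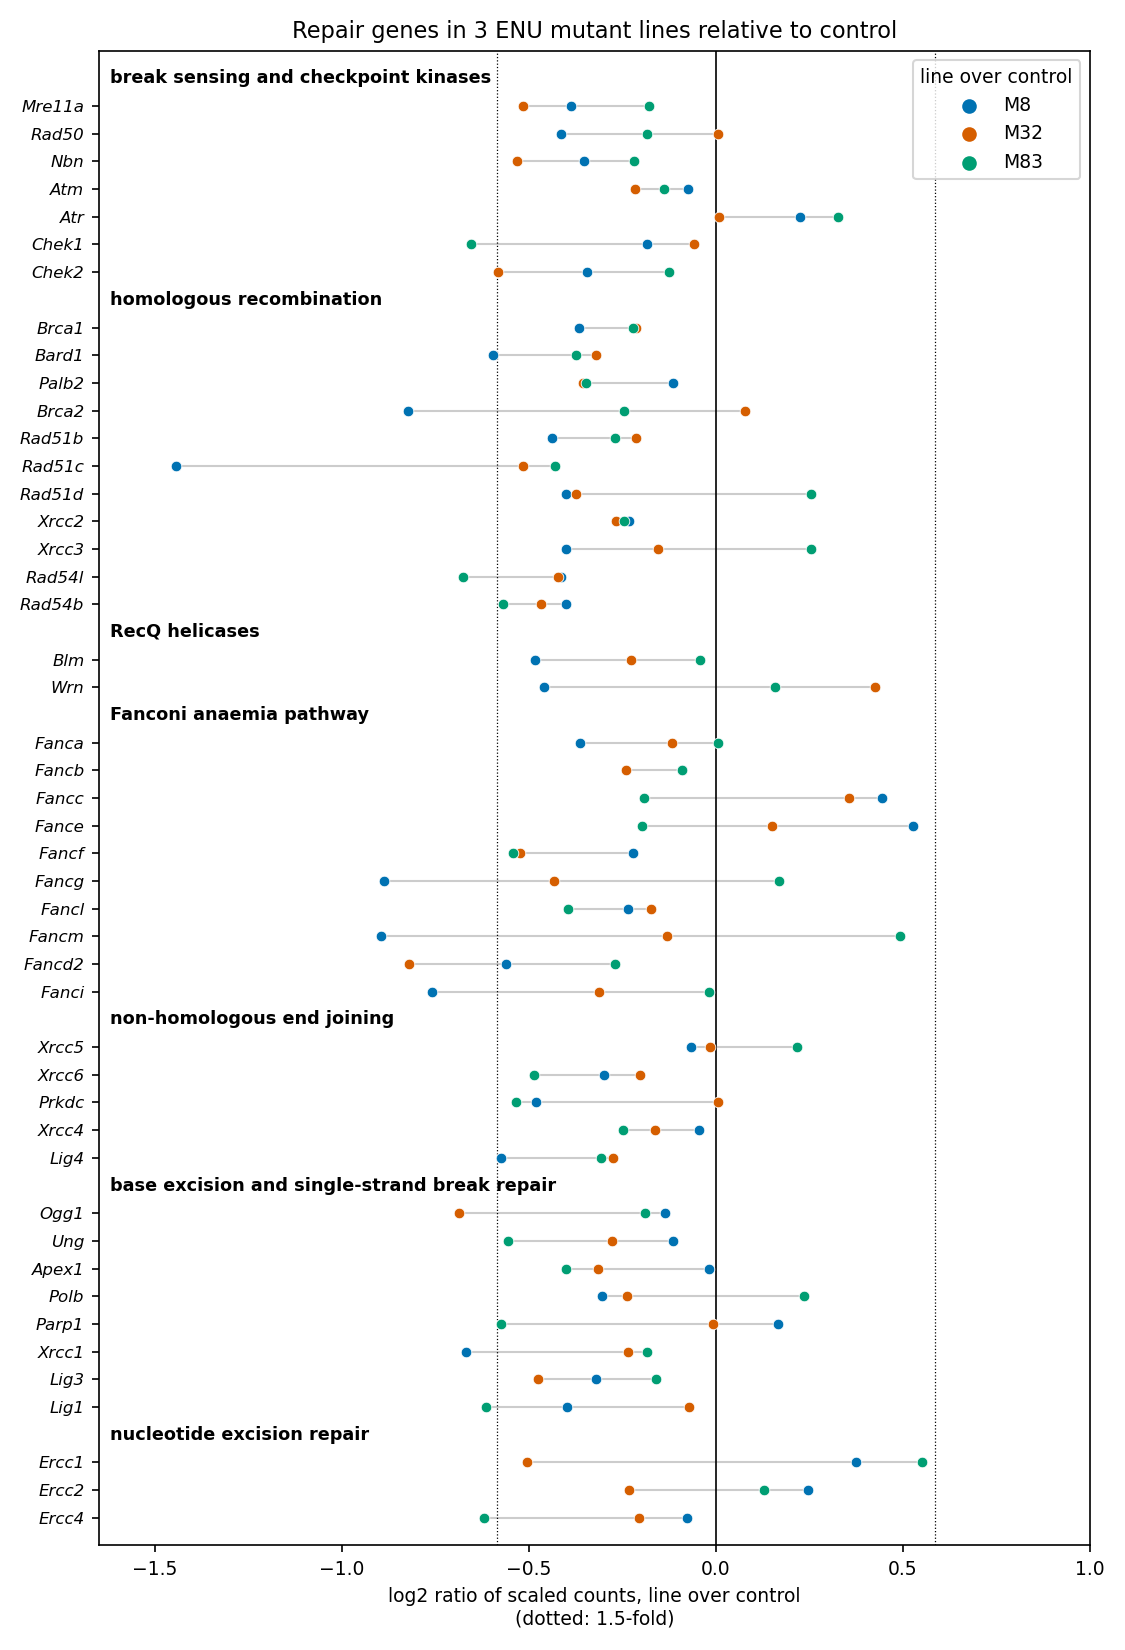
Log2 ratio of scaled counts in each ENU mutant line over control (x axis) for the 46 repair genes (y axis), grouped by role; each point is 1 library against the control library, and dotted lines mark 1.5-fold. Most points lie left of 0, and 29 genes have all 3 points there; Rad51c in M8 lies furthest to the left at -1.44.

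Each line was also compared with control on its own. As there is 1 library per line, no test is possible. A gene was counted when its log2 ratio, taken with a prior count of 2, reached 1.5-fold and the exact 95% interval (Clopper-Pearson) of its ratio did not contain 1. That interval covers counting error only. Ratios printed with an interval use no prior count. By this rule 13 of the 46 genes (28.3%) differed from control in some line, against 37.6% of all tested genes, and all 13 were lower. Of the 9431 tested genes within the list's range of mean CPM, 2711 differed in some line, a share close to that of the list. In M8 7 were lower, against a background of 8.21% of tested genes, and 0 were higher, against 10.5%. In M32 2 were lower (background 5.53%) and 0 higher (12.0%). In M83 4 were lower (7.37%) and 0 higher (12.8%). Each of the 13 was counted in 1 line only, and whether the lines differ from each other was not tested. At 2-fold 1 of the 46 was counted in any line, Rad51c in M8, against 20.5% of all tested genes and 823 of those 9431. The background of genes lower at 2-fold was 3.83% for M8, 2.55% for M32 and 2.87% for M83. The background of genes higher at 2-fold was 6.24% for M8, 7.54% for M32 and 7.89% for M83. The genes nearest the limit were Bard1 in M8, just inside at a log2 ratio of -0.60, and Chek2 in M32 and Lig4 in M8, just outside at -0.58 each.

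**Figure D2:**
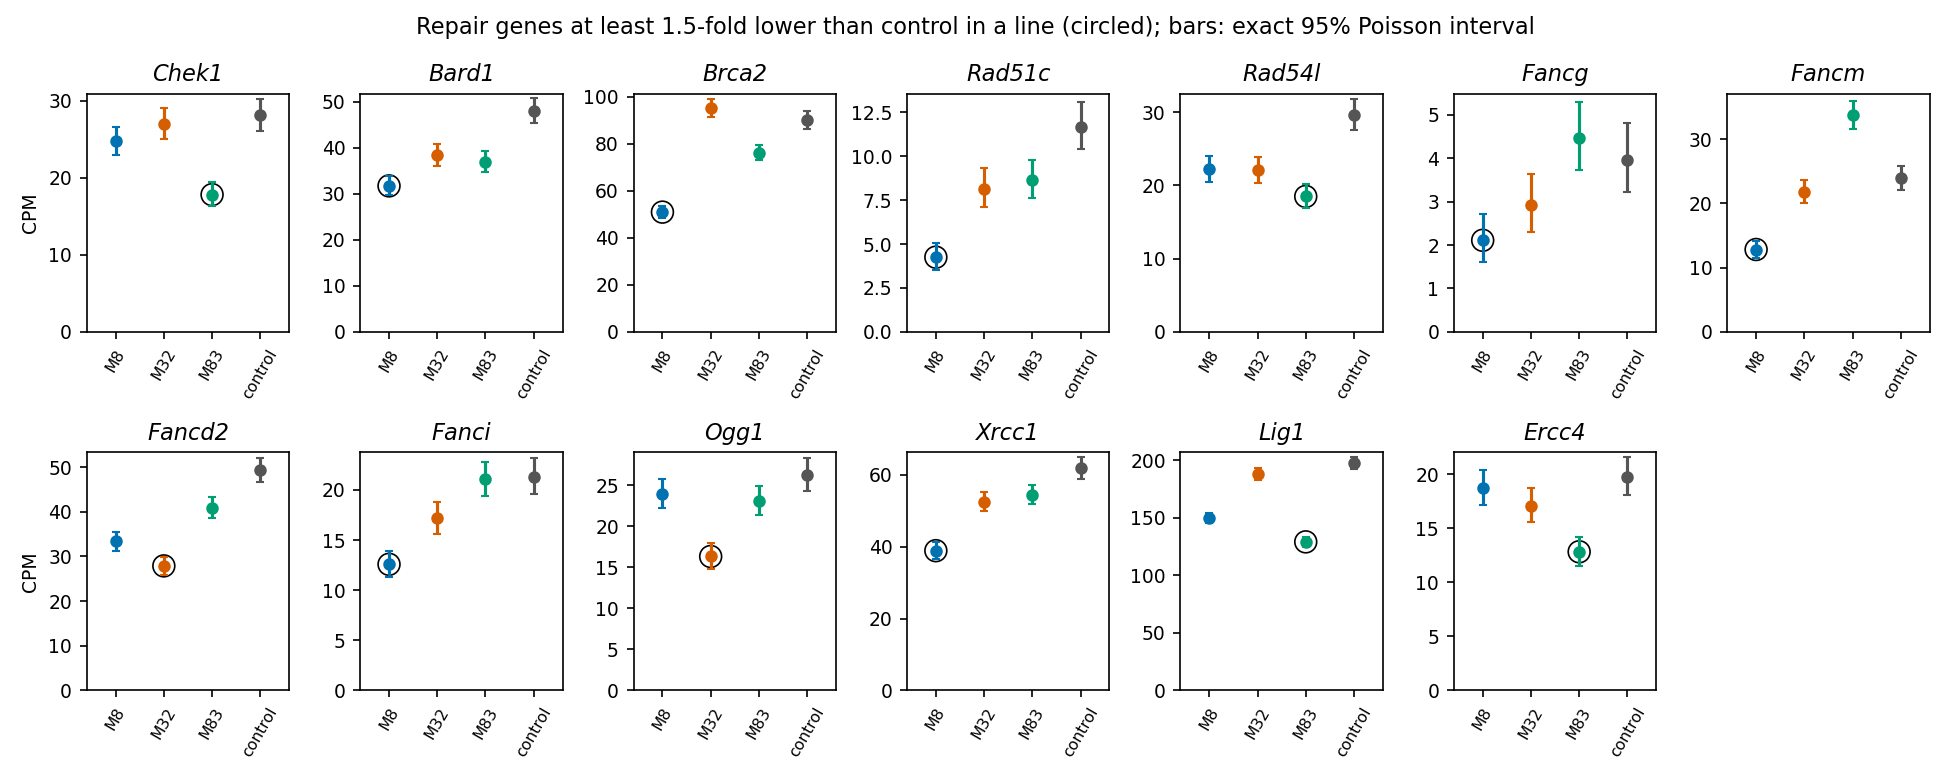
CPM (y axis, from 0) in M8, M32, M83 and control for the 13 repair genes that were at least 1.5-fold lower than control in a line; the circled point is that line, and bars are exact 95% Poisson intervals of the count. Rad51c stands at 4.25 CPM in M8, against 11.7 CPM in control, and Fancm spans the range from 12.8 CPM in M8 to 33.7 CPM in M83.

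The sensors and signalling kinases of DNA breaks were mostly a little below control. Of 7 genes 5 were below control in every line, with a median fitted log2 difference of -0.28. Mre11a, Rad50 and Nbn encode the complex that binds and tethers broken ends. Mre11a had 2190, 1909 and 2571 counts in M8, M32 and M83, against 2570 in control, and Nbn had 680, 572 and 758 counts in the lines, against 779 in control. M32 was the lowest library for both. Nbn had the most negative fitted log2 difference of this group, -0.36 (SE 0.245). Rad50 had 1641, 2093 and 1957 counts in the lines, against 1962 in control, so that its M32 value was level with control where those of its partners were low.

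Atm, the kinase that this complex activates, had 1327, 1146 and 1290 counts in M8, M32 and M83, against 1253 in control. After scaling it lay below control in each line, by a log2 ratio of at most 0.22 in size. Atr, the kinase of single-stranded DNA at stalled forks, had 1511, 1239 and 1645 counts in the lines, against 1158 in control. Its log2 ratios were 0.23 (M8), 0.01 (M32) and 0.33 (M83), so the M32 library did not differ from control beyond counting error. The effector kinases downstream were lowest in different lines. Chek1 had 704, 732 and 515 counts in the lines, against 717 in control, with a ratio of 0.634 in M83 (95% interval 0.565 to 0.711). Chek2 had 361, 291 and 427 counts in the lines, against 411 in control, and was lowest in M32.

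The recombination genes all lay on the low side in the fit, though none passed the test. The fitted log2 difference was negative for all 11 genes, with a median of -0.28, and 8 lay below control in every line. In M8 all 11 were below control, at a median log2 ratio of -0.40, against -0.32 in M32 and -0.27 in M83. Of all 13576 tested genes 6440 were below control in M8. Over all 46 genes the median log2 ratio was -0.35 (M8), -0.23 (M32) and -0.21 (M83), against 0.02, -0.00 and 0.01 for all tested genes.

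Rad51c, a subunit of complexes that assist strand exchange, had the lowest ratio of any listed gene. It had 121, 221 and 250 counts in M8, M32 and M83, against 298 in control. M8 lay below the other 3 libraries, with a ratio to control of 0.364 (95% interval 0.292 to 0.451). The fitted log2 difference was -0.74 (SE 0.454, edgeR unadjusted p = 0.152), and -0.48 without M8. The gene spans 87376645 to 87404954 on the minus strand of chromosome 11 (GRCm38), and its exons overlap no other annotated gene. Of Rad51b, Rad51d, Xrcc2 and Xrcc3, which encode other subunits of these complexes, none reached 1.5-fold in M8. Rad51b had 76, 85 and 87 counts in the lines, against 93 in control, and Xrcc2 had 274, 255 and 276 counts in the lines, against 289 in control. Rad51d and Xrcc3 were below control in M8 and M32 but above it in M83, where their log2 ratios were 0.26 and 0.25. For Xrcc3 the 95% interval of the ratio contained 1 in M32 (0.720 to 1.12) and in M83 (0.977 to 1.46). Rad51d had 355, 345 and 570 counts in M8, M32 and M83, against 421 in control, and Xrcc3 had 145, 164 and 233 counts in the lines, against 172 in control.

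Brca2, a mediator that prepares resected ends for strand exchange, had 1451, 2581 and 2201 counts in M8, M32 and M83, against 2301 in control. Its ratio to control was 0.565 in M8 (95% interval 0.529 to 0.604) and 1.06 in M32 (0.997 to 1.12). Palb2, which bridges BRCA1 and BRCA2, had 242, 195 and 209 counts in the lines, against 235 in control. After scaling, the ratio of Palb2 in M8 was 0.923 (95% interval 0.768 to 1.11). Brca1, the ubiquitin ligase subunit that favours resection of the ends, had 1170, 1241 and 1315 counts in the lines, against 1353 in control. Its obligate partner Bard1 had 904, 1042 and 1071 counts in the lines, against 1225 in control, with a ratio of 0.661 in M8 (95% interval 0.606 to 0.721). Both were below control in every line, and M8 was the lowest library for both.

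Rad54l and Rad54b, motor proteins that act during strand exchange, lay below control in all 3 lines. Rad54l had 632, 599 and 535 counts in M8, M32 and M83, against 756 in control, a mean of 20.9 ± 2.10 CPM in the lines (SD, n = 3) and 29.6 CPM in control. M83 was the lowest library, at a ratio of 0.624 (95% interval 0.558 to 0.699), and Rad54l is 1 of the 4 genes counted there. The fitted log2 difference was -0.50 (SE 0.244, edgeR adjusted p = 1.00). Rad54b had 466, 424 and 421 counts in the lines, against 552 in control, with a fitted log2 difference of -0.48 (SE 0.253). All 3 lines lay below control for both genes, and the spread among lines was smaller than the gap to control. Exons of Lrrc41 on the opposite strand cover 15.4% of the exonic length of Rad54l, and exons of Fsbp on the same strand cover 35.8% of that of Rad54b. The fitted log2 difference was 0.17 for Lrrc41 and -0.49 for Fsbp. The strand setting of the counts is not given in the sources used here, so reads in such overlaps cannot be told apart.

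The promoters of the listed genes were searched for letters bound by cell-cycle factors. RefSeq promoters (GRCm38.p6, 250 bases before to 50 after the start) were given for 37 of the 46 genes. The E2F letters TTTCCCGC or TTTGGCGC, on either strand, were present in 6 of the 37 genes (16.2%), against 3.45% of tested genes with a promoter. The share was 3.9% among the other repair genes and 23.3% among the proliferation genes described further on. The NF-Y letters CCAAT were present in 22 of 37 (59.5%, against 43.8% of tested genes), and the CHR letters TTTGAA in 2 of 37 (5.41%, against 14.8%). No match of a motif overlapped a match of another. The 6 stretches with E2F letters are shown to let these genes be compared, read 5′ to 3′ on the gene's strand, with the E2F letters or their reverse complement in capitals.
Rad51c: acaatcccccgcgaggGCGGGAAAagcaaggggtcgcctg
Brca2: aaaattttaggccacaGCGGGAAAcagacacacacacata
Bard1: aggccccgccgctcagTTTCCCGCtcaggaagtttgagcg
Fancg: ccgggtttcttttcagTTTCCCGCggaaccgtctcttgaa
Chek2: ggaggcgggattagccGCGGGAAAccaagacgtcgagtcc
Xrcc6: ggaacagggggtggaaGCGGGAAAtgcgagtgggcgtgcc

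They lie at chr11:87404936-87404975 (minus strand, Rad51c), chr5:150522437-150522476 (plus, Brca2), chr1:71103158-71103197 (minus, Bard1), chr4:43010330-43010369 (minus, Fancg), chr5:110839815-110839854 (plus, Chek2) and chr15:82016307-82016346 (plus, Xrcc6). The motif starts 5 bases before the annotated start in Rad51c and between 46 and 209 bases before it in the others. In M8 all 6 of these genes were below control, with log2 ratios from -1.44 to -0.30 and a median of -0.71. The other 31 genes with a promoter had a median of -0.18 in M8. For these 6 and the other 31 the medians were -0.38 and -0.22 in M32, and -0.31 and -0.19 in M83. Of the 7 genes counted as lower in M8, 4 carry the E2F letters, namely Rad51c, Brca2, Bard1 and Fancg. In M32 and M83 0 of the 6 were counted as lower, against 1 (M32) and 4 (M83) of the other 31. Over all tested genes with a promoter, the median log2 ratio for M8 was -0.09 over the 346 with E2F letters and 0.02 over those without. It was -0.07 and -0.004 for M32, and -0.12 and 0.006 for M83, so the difference was not confined to M8. Of the 753 tested genes with a promoter counted as lower in M8, 4.38% carry the letters. That share was 3.33% of the 481 counted as lower in M32 and 4.66% of the 687 in M83. A match describes letters in a window and is no measurement of binding.

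The whole promoter window of Rad51c, the gene furthest from control, is given because its E2F letters sit at the start itself (chr11:87404905-87405204, minus strand, GRCm38.p6, E2F letters in capitals, no CCAAT or TTTGAA in the window).
Rad51c: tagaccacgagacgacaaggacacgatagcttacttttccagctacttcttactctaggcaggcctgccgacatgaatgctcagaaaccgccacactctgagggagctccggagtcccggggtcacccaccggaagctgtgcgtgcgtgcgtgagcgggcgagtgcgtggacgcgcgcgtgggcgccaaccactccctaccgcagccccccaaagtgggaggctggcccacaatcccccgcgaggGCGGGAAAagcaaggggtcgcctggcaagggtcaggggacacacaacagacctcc

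The RefSeq table lists a further start for Rad51c, whose window holds none of the searched letters.

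The helicases of the RecQ family differed from each other. Blm, which dissolves joined recombination intermediates, had 706, 803 and 974 counts in M8, M32 and M83, against 885 in control. It was below control in every line after scaling, though by a log2 ratio of only -0.04 in M83. Wrn, a helicase with a nuclease domain, had 607, 1071 and 948 counts in the lines, against 749 in control. Its ratio was 0.726 in M8 (95% interval 0.652 to 0.809) and 1.35 in M32 (1.22 to 1.48), so M8 and M32 lay on opposite sides of control.

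Among the 10 Fanconi genes 5 were below control in every line, and the median fitted log2 difference was -0.21. Fancd2 and Fanci encode the paired proteins that are ubiquitinated at a crosslink. Fancd2 had 950, 756 and 1181 counts in M8, M32 and M83, against 1257 in control, and its fitted log2 difference of -0.53 (SE 0.271) was the most negative of this group. Its ratio in M32 was 0.566 (95% interval 0.516 to 0.620). Without M83 its unadjusted p in edgeR was 0.0318, and its adjusted p did not pass. Fanci had 358, 465 and 609 counts in the lines, against 544 in control, with a ratio of 0.590 in M8 (95% interval 0.515 to 0.675). The low library was thus M32 for Fancd2 and M8 for Fanci. Exons of Polg on the opposite strand cover 16.0% of the exonic length of Fanci, and the log2 ratio of Polg in M8 was -0.06.

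In the core complex, which carries the ubiquitin ligase, Fancm and Fancg varied most. Fancm, the motor protein that anchors the complex to DNA, had 365, 592 and 974 counts in M8, M32 and M83, against 610 in control. Its ratio was 0.536 in M8 (95% interval 0.470 to 0.612) and 1.41 in M83 (1.27 to 1.56), a 2.63-fold span between M83 and M8 (2.33 to 2.97). It lies on chromosome 12, and the median over that chromosome was -0.52 (log2) for M8. Fancg had 60, 79 and 129 counts in the lines, against 101 in control, with a ratio of 0.532 in M8 (95% interval 0.380 to 0.740). Fancl, the ligase subunit itself, had 510, 507 and 463 counts in the lines, against 538 in control, and was nearly level among the lines. Fancf had 376, 290 and 305 counts in the lines, against 393 in control, and Fancb 489, 420 and 497, against 467 in control. Fancf, Fancl and Fancb were below control in every line after scaling.

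Fancc and Fance, which sit side by side in the core complex, were higher than control in M8 and M32 and lower in M83. In M83 Fancc did not differ from control beyond counting error (95% interval of the ratio 0.712 to 1.07). Fance had 1201, 880 and 737 counts in M8, M32 and M83, against 746 in control, a ratio of 1.44 in M8 (95% interval 1.32 to 1.58). Fancc had 297, 266 and 193 counts in the lines, against 195 in control, and had the highest fitted log2 difference of the 46 genes, at 0.23 (SE 0.389), which ranged from 0.11 to 0.39 with a line left out. Neither reached 1.5-fold. Exons of Gm16133 and 2010111I01Rik on the opposite strand cover 18.6% of the exonic length of Fancc. Fanca, another core subunit, had 1683, 1901 and 2210 counts in the lines, against 1941 in control, and its M83 value was level with control. Of its exonic length 10.5% is covered by exons of Zfp276 on the opposite strand.

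The end-joining genes were also mostly below control, with a median fitted log2 difference of -0.32. Of the 5 genes 3 were below control in every line, and 0 were counted at 1.5-fold. Xrcc5 and Xrcc6 encode the Ku80 and Ku70 subunits of the ring that slides onto broken ends. Xrcc5 had 1066, 1051 and 1318 counts in M8, M32 and M83, against 1000 in control, and Xrcc6 had 1674, 1704 and 1494 counts in the lines, against 1846 in control. The subunits therefore lay on opposite sides of control in M83, at a log2 ratio of 0.22 for Xrcc5 and -0.49 for Xrcc6. Lig4, the ligase of this route, had the most negative fitted value of the group, -0.38 (SE 0.346), with 164, 193 and 201 counts in the lines, against 220 in control. Its cofactor Xrcc4 had 342, 300 and 301 counts in the lines, against 316 in control. Prkdc, the kinase recruited by Ku, had 394, 527 and 386 counts in the lines, against 494 in control.

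In base excision and single-strand break repair, the fitted log2 difference was negative for all 8 genes, with a median of -0.31, and 6 were below control in every line. Ogg1, the glycosylase for oxidised guanine, had 682, 443 and 667 counts in M8, M32 and M83, against 672 in control, with a ratio of 0.620 in M32 (95% interval 0.549 to 0.700). Chromosome 6, which carries Ogg1 and Fancd2, had a median log2 ratio of -0.24 in M32 over its 652 tested genes, and neither gene reached 1.5-fold with that median taken off. Exons of Camk1 on the opposite strand cover 10.6% of the exonic length of Ogg1, and Camk1 had a log2 ratio of -0.31 in M32. Ung, the uracil glycosylase, had 667, 567 and 498 counts in the lines, against 647 in control, and was lowest in M83.

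Apex1, the endonuclease that cuts at abasic sites, had 3058, 2370 and 2382 counts in M8, M32 and M83, against 2775 in control. Its value is uncertain, because exons of Pip4p1 on the opposite strand cover 61.7% of its exonic length. Polb, the gap-filling polymerase, had 380, 379 and 562 counts in the lines, against 421 in control, and had the least negative fitted value of this group, -0.08 (SE 0.321).

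Parp1, the sensor of strand breaks, had 8747, 7384 and 5316 counts in M8, M32 and M83, against 6985 in control. M83 stood below the other libraries, at a ratio of 0.672 (95% interval 0.648 to 0.696), just short of the 1.5-fold limit. Xrcc1, the scaffold that Parp1 activity recruits, had 1107, 1424 and 1574 counts in the lines, against 1577 in control, and here M8 was the low library, at a ratio of 0.629 (95% interval 0.582 to 0.680). Its fitted value was -0.35 (SE 0.266), and -0.21 without M8. Lig3, the ligase held by Xrcc1, had 1367, 1170 and 1551 counts in the lines, against 1530 in control, and 25.1% of its exonic length is shared with Rffl on the opposite strand. Lig1, the ligase of DNA replication that also seals long patches, had 4265, 5096 and 3731 counts in the lines, against 5041 in control, with a ratio of 0.653 in M83 (95% interval 0.626 to 0.681).

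Of the 3 nucleotide excision genes, 2 lay above control in M8 and M83, and all 3 lay below it in M32. Ercc1 and Ercc4 encode the paired subunits of a nuclease that cuts beside bulky lesions and also acts at crosslinks. Ercc1 had 6496, 3360 and 7455 counts in M8, M32 and M83, against 4485 in control. The ratio stood at 1.30 in M8 (95% interval 1.25 to 1.35), 0.705 in M32 (0.674 to 0.737) and 1.47 in M83 (1.41 to 1.52), so that M32 lay on the other side of control from M8 and M83. Between M83 and M32 the level differed 2.08-fold (95% interval 2.00 to 2.17). Ercc4 had 533, 464 and 371 counts in the lines, against 504 in control, with a ratio of 0.650 in M83 (95% interval 0.567 to 0.744), on chromosome 16, whose median log2 ratio in M83 was -0.53. Ercc2, a helicase subunit of the transcription factor TFIIH, had 1602, 1096 and 1502 counts in the lines, against 1211 in control. Its exons overlap those of Klc3 and Gm26852 on the opposite strand over 42.4% of their length.

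Across the list, only Rad51c, Fancm, Fancg and Ercc1 spanned at least 2-fold between their highest and lowest libraries, and 21 of the 46 spanned at least 1.5-fold. The same counts were not made over all tested genes. The median span was 1.48-fold, against 1.51-fold for all tested genes and 1.42-fold for tested genes within the list's range of mean CPM. Compared per length, as CPM per kilobase of exon (RPKM), the list covered a wide range of levels. Apex1 averaged 67.9 RPKM over the 4 libraries, Ercc1 63.1, Parp1 49.0 and Lig1 38.9, and next came Xrcc5 at 15.8. The lowest were Rad51b at 0.829 RPKM, Fancg at 0.886, Fancc at 1.03 and Palb2 at 1.09. Of the 13 genes counted at 1.5-fold, Fancg rests on the fewest reads and has the widest interval.

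Proteins that work as a pair need not keep their transcripts in a fixed ratio, and 10 such pairs, chosen after the values were seen, were compared within each library by their RPKM. Ercc1 to Ercc4 stood at 26.4, 15.7 and 43.5 in the lines, against 19.3 in control, a 2.78-fold span. Palb2 to Brca2 was 0.310, 0.140 and 0.177 in the lines, against 0.190 in control, and Rad51c to Xrcc3 was 0.524, 0.845 and 0.673, against 1.09 in control. Bard1 to Brca1 was the most even pair, at 1.17, 1.27 and 1.23 in the lines, against 1.37 in control. For the other 6 pairs the span lay between 1.45-fold (Lig4 to Xrcc4) and 1.63-fold (Fancd2 to Fanci).

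**Figure D3:**
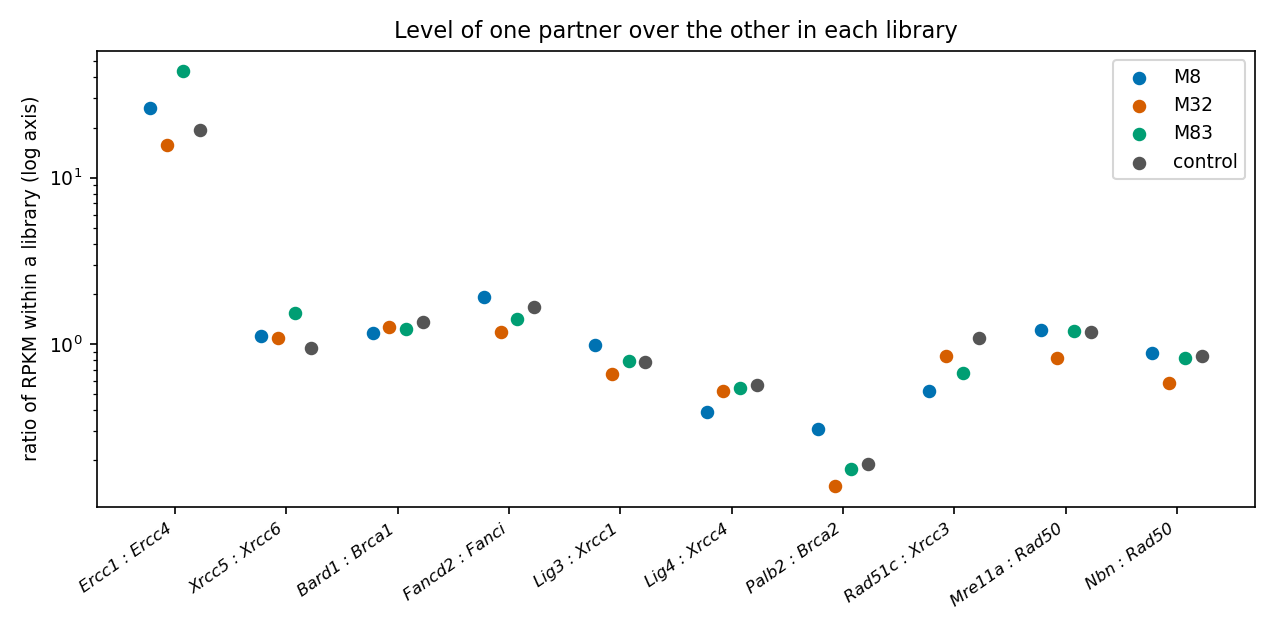
Ratio of the RPKM of the first gene to that of the second (y axis, log scale) in M8, M32, M83 and control for 10 pairs of genes whose proteins work together; each point is 1 library. Ercc1 to Ercc4 runs from 15.7 in M32 to 43.5 in M83, and Bard1 to Brca1 stays between 1.17 and 1.37.

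Some of the low values coincided with a whole chromosome. Chromosome 12, with 474 tested genes, had a median log2 ratio of -0.52 (M8), -0.01 (M32) and 0.15 (M83). It carries Rad51b, Xrcc3 and Fancm, which stood at -0.44, -0.40 and -0.90 in M8. Over the 397 tested genes of chromosome 16 the median was 0.00 (M8), -0.03 (M32) and -0.53 (M83), and its genes Prkdc and Ercc4 stood at -0.53 and -0.62 in M83. With the chromosome's median taken off, Fancm was at -0.38 in M8 and Ercc4 at -0.09 in M83, and neither then reached 1.5-fold. The lower Ercc4 and the higher Ercc1 in M83 lie on different chromosomes, as Ercc1 is on chromosome 7, whose median was 0.00 in M83. The part of the chromosome in these values was not tested. Rad51c, Brca2, Bard1, Fancg, Fanci and Xrcc1 were still at least 1.5-fold lower in M8 with the chromosome median taken off, and Lig4 then passed that limit as well, at -0.59.

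**Figure D4:**
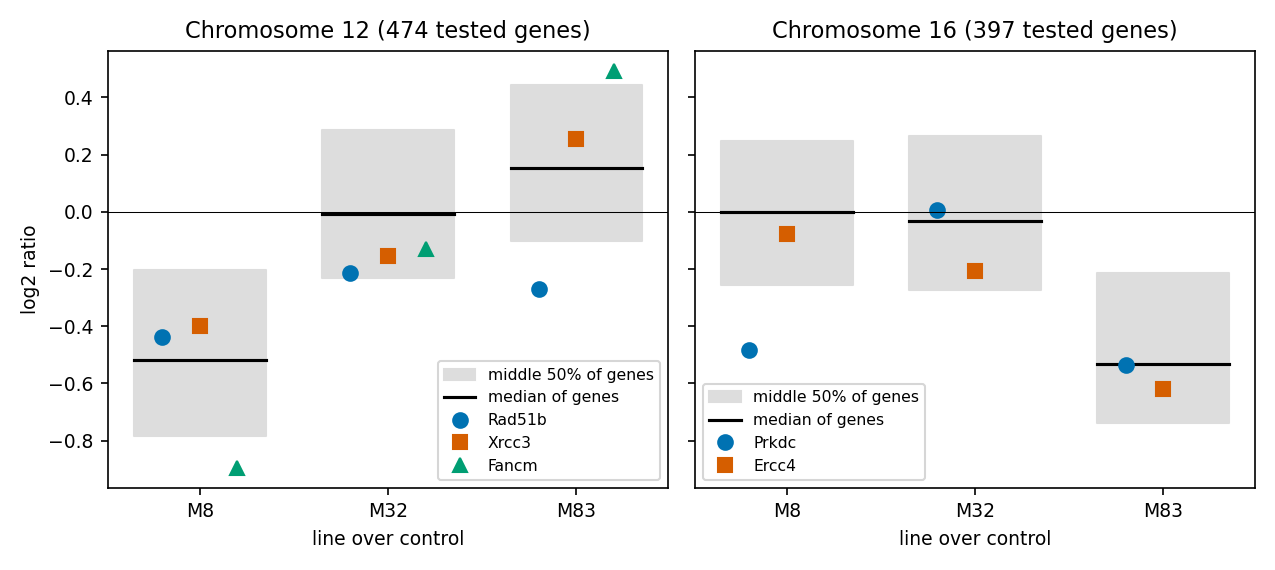
Log2 ratio of each line over control (y axis) for the repair genes on chromosomes 12 and 16 (symbols), beside the median (bar) and the middle 50% (grey) of all tested genes on the chromosome. Chromosome 12 has a median of -0.52 in M8 and chromosome 16 one of -0.53 in M83.

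Of a further 97 repair genes in the table, 95 were tested. In edgeR 0 passed and 2 had an unadjusted p under 0.05, 2.11% against 3.30% of all tested genes, and the median fitted log2 difference was -0.19. In every line 47 of the 95 (49.5%) lay below control, against 21.3% of all tested genes, and 9 (9.47%) lay above it, against 23.3%. The recombination genes among them were again negative throughout, 23 of 23 in the fit, with a median of -0.28. Of the nucleotide excision genes 9 of 19 were negative, with a median of 0.05. The most negative fitted value was -0.57 for Mutyh among the base excision genes, -0.40 for Rtel1 among the helicases, -0.40 for Faap24 in the Fanconi pathway and -0.29 for Hus1 among the sensors. The highest were 0.27 for Nthl1, 0.21 for Top3a, 0.09 for Fan1 and, among the recombination genes, -0.01 for Sfr1.

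Dna2, a nuclease that resects broken ends, lay below control by at least 1.5-fold in each line, with 423, 268 and 338 counts in M8, M32 and M83, against 578 in control (log2 difference -0.90, SE 0.311, edgeR unadjusted p = 0.0249, adjusted p = 1.00). Polq, the polymerase of microhomology-mediated joining, had 1024, 981 and 776 counts in the lines, against 1301 in control (edgeR unadjusted p = 0.0471), and it lies on chromosome 16. Gen1, a resolvase on chromosome 12, had 400, 756 and 1137 counts in the lines, against 895 in control. Rpa3, a subunit of the single-strand binding protein, had 1187, 922 and 657 counts in the lines, against 1267 in control.

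At the other end, H2afx, the histone variant phosphorylated around breaks, had 4100, 3258 and 2257 counts in M8, M32 and M83, against 1624 in control, a log2 difference of 0.84 (SE 0.369, edgeR unadjusted p = 0.0593). Nhej1, the Xrcc4-like joining factor, had 77, 107 and 69 counts in the lines, against 44 in control. Ddb2, a sensor of ultraviolet lesions, had 79, 120 and 169 counts in the lines, against 72 in control. Aplf, an end-joining cofactor, was counted as lower at 1.5-fold in M32 alone, with 555, 226 and 542 counts in the lines, against 509 in control. Its log2 ratios were -0.03 (M8), -1.25 (M32) and -0.09 (M83). It lies on chromosome 6, whose median log2 ratio in M32 was -0.24.

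Genes of proliferation lay below control in the same lines as the repair list. These 36 genes were chosen for DNA replication, the cell cycle and mitosis, with earlier results of these data known, and share no gene with the 46. Of the 36, 27 (75.0%) were below control in every line, against 21.3% of all tested genes, and 0 were above it, against 23.3%. In edgeR 0 of the 36 passed and 2 (5.56%) had an unadjusted p under 0.05, against 3.30% of all tested genes. Their median log2 ratio was -0.32 (M8), -0.20 (M32) and -0.40 (M83), against -0.35, -0.23 and -0.21 for the repair list. All 36 fitted differences were negative, from -0.87 for Mki67 to -0.03 for Birc5. The part of proliferation in the lower repair transcripts was not tested, and in bulk RNA fewer cycling cells and less RNA per cell cannot be told apart.

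**Figure D5:**
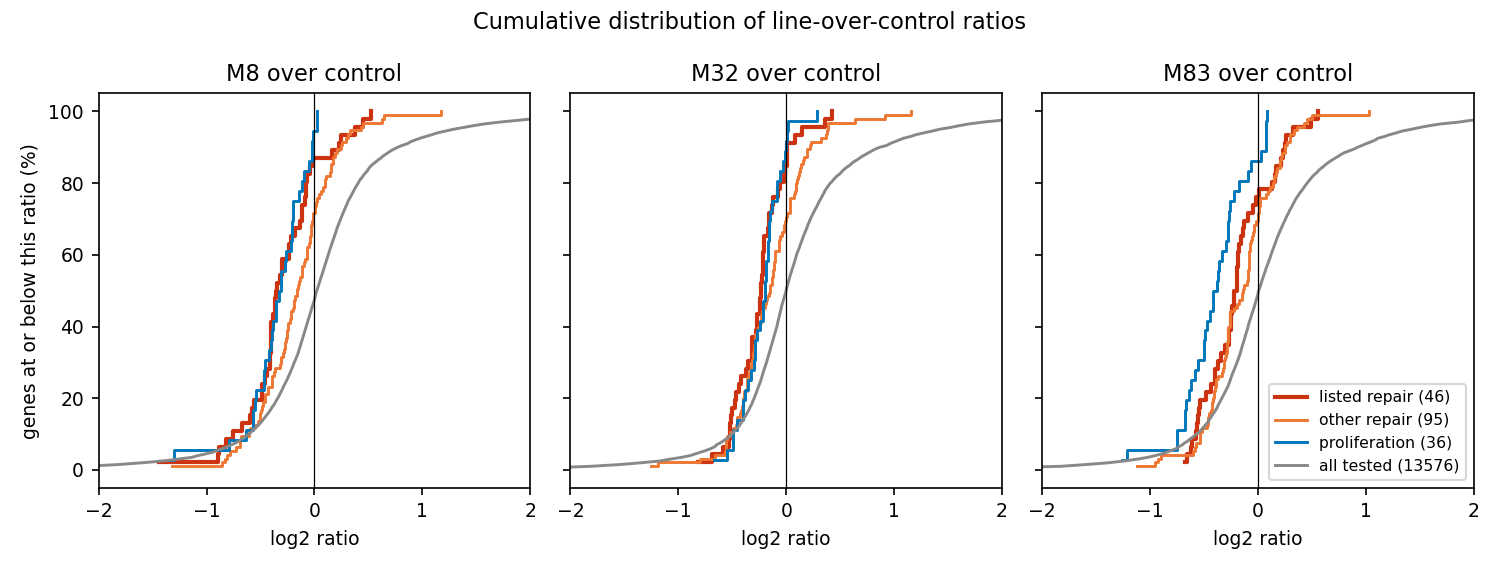
Percentage of genes (y axis) at or below each log2 ratio of a line over control (x axis, drawn from -2 to 2) for the 46 repair genes, 95 other repair genes, 36 proliferation genes and all 13576 tested genes. The repair curve lies left of the curve of all genes around 0, with medians of -0.35, -0.23 and -0.21 for M8, M32 and M83.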

How the data were processed

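The authors deposited raw counts per gene, whole numbers with no normalisation, in 1 column per library. The submitters' processing notes name the build GRCm38. Aligner, counter, annotation and strand setting: not given in the sources used here. Poly(A) libraries were made with NEBNext kits, per the labels' protocols. Symbols came from the table, and positions, exon lengths and overlaps from GENCODE vM21 (GRCm38), which held 41434 of the 41457 identifiers.

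Counts were fitted in edgeR 4.0.16 (R 4.3.3) with TMM factors (0.986 to 1.03), filterByExpr and the quasi-likelihood test, M8, M32 and M83 against control, with 2 residual degrees of freedom and Benjamini-Hochberg adjustment over all 13576 genes tested. DESeq2 1.42.0 was the alternative tool. Log2 ratios of single lines used a prior count of 2. CPM were scaled by TMM, except in marker sums, and RPKM divide CPM by the union of exons. Reads carry no molecular identifiers, so intervals cover counting error. Scripts were tested on simulated data. All 46 genes are named. Of the other repair genes, those at 2-fold in a line and the extremes of each role were to be named, and some of these are not reported here. The 46 genes, the lists and the tests were chosen with earlier results of these data known.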

Additional observations from a re-analysis of the deposited data

How the results depend on the processing

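Under every alternative run, 0 of the 46 repair genes passed, and the median fitted log2 difference stayed between -0.31 (no filter on low counts) and -0.24 (without M8). Over all genes, DESeq2 called 37 and edgeR without the filter called 2, against 1. The number of repair genes with an unadjusted p under 0.05 was 0 to 1 when a line was left out, the 1 being Fancd2 without M83. With chromosome medians taken off, 0 genes were counted as lower at 1.5-fold in M32, against 2. With a prior count of 0.5 there were 3, as Chek2 was then counted too. Scaling by library size alone left 2 lower genes in M83, against 4, as Lig1 and Ercc4 dropped out, and made Ercc1 the 1 higher gene there. Genes below control in every line numbered 27 to 36 under all alternatives on the 46 genes, against 29. They numbered 21 of the 35 genes with under 10% of exonic length shared with another gene, an alternative added after the data were seen. Genes above control in every remaining line numbered 2 to 3 with a line left out, and 2 with chromosome medians taken off. Within the 250 bases before the start alone, 5 of the 37 genes held the E2F letters (13.5%, against 2.87% of tested genes). Rad51c was the gene that dropped out, as its match runs across the start. In the same window 20 genes held CCAAT (54.1%, against 41.5%) and 1 held TTTGAA (2.7%, against 13.2%).

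Leaving out a line turned the direction of 9 fitted log2 differences, none of which passed a test. They ranged from -0.055 to 0.11 for Xrcc5, -0.26 to 0.067 for Parp1, -0.016 to 0.44 for Ercc1, -0.040 to 0.16 for Ercc2, -0.29 to 0.018 for Polb, -0.14 to 0.30 for Wrn, -0.48 to 0.22 for Fancm, -0.29 to 0.065 for Xrcc3 and -0.014 to 0.34 for Fance. The cause was not tested. No paired analysis was possible because the control is a single library and the labels number no replicates. Depth limited mainly Fancg and Rad51b, which had at most 129 and 93 counts in a library.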
